A study of Mus musculus with 47 samples.

Results

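The genes described here are 9 genes that code for proteins of the sperm surface and of the fluid in which spermatozoa mature: the cysteine-rich secretory proteins Crisp1, Crisp2, Crisp3 and Crisp4, the surface antigen Cd52, the metalloproteinase family members Adam7 and Adam28, and the ribonuclease family members Rnase9 and Rnase10. They were chosen by name, with earlier results of these data known, and all 9 were found among the 23416 gene symbols of the count files. Crisp2, which is made in the testis, was set against the other 8 genes. These are grouped here as epididymal, although Crisp3 is known from the salivary gland. RNA-seq libraries were made from the liver and from motile cauda epididymal spermatozoa of male mice aged 8 to 12 weeks, with 2 biological replicates per group. Ctrl-F1 males (background strain BDF2) were sired by wild-type males through intracytoplasmic sperm injection (ICSI) of testicular sperm, and KO-F1 males (BDF2) in the same way by Scml2-KO males, which lack a germ cell Polycomb protein encoded on the X chromosome. KO-F2 males (BDF3) were bred from KO-F1 males by natural mating, gave spermatozoa only here, and have no Ctrl-F2 counterpart. Generation, mode of conception (ICSI or mating) and background strain label therefore cannot be told apart. In KO-F2 against Ctrl-F1, descent from an Scml2-KO male cannot be told apart from them either. Because sons receive no paternal X chromosome, the KO-F1 males, the sires of KO-F2, carried wild-type Scml2. The KO-F2 males had no Scml2-KO parent, so KO in both names stands for descent and not for genotype. The study asked whether loss of SCML2 in the father changes RNA in his descendants.

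Spermatozoa leave the testis unable to fertilize and acquire motility and egg binding while they pass through the epididymis, whose epithelium secretes region-specific proteins under the control of androgens and of factors from the testis. CRISP1 and CRISP4 are secreted there and bind the passing sperm, CD52 is a lipid-anchored peptide that is transferred from the epithelium to the sperm membrane, and ADAM7 reaches the sperm surface in a similar way. CRISP2, by contrast, is made in spermatids and is built into the acrosome and the tail. Transcription has ceased in spermatozoa, so that an epididymal mRNA in such a library can stem from RNA taken up from the epididymis or from epithelial cells and fragments collected with the sperm. These sources were not separated in these libraries, and fewer cells of a type and less RNA per cell cannot be told apart in bulk samples.

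The CRISP genes lie on 2 chromosomes. In GRCm38, Crisp3 (chr17:40221777-40242288), Crisp1 (chr17:40293758-40319207) and Crisp2 (chr17:40764734-40794146) follow each other on the reverse strand of chromosome 17, and Crisp4 (chr1:18114889-18145902) lies on the reverse strand of chromosome 1. Crisp3 and Crisp1 are separated by 51469 bases and Crisp1 and Crisp2 by 445526 bases. The promoters of the 3 neighbours, from 250 bases before to 50 bases after the RefSeq start site (GRCm38.p6), are shown because they set the testicular gene beside its epididymal neighbour and beside a near copy that was hardly detected. Capitals mark the androgen response element core AGAACA and the TATA box TATAAA on either strand.
Crisp2: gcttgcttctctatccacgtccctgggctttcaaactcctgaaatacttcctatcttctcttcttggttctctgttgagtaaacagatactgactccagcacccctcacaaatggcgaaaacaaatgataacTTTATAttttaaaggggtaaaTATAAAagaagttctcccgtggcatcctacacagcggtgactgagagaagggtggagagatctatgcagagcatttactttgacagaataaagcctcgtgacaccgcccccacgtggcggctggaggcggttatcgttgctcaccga
Crisp1: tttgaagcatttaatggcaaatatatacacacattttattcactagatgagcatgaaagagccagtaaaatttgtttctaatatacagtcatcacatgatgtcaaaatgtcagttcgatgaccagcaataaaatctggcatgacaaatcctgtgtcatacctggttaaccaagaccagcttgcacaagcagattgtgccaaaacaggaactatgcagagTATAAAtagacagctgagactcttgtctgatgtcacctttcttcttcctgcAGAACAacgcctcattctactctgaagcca
Crisp3: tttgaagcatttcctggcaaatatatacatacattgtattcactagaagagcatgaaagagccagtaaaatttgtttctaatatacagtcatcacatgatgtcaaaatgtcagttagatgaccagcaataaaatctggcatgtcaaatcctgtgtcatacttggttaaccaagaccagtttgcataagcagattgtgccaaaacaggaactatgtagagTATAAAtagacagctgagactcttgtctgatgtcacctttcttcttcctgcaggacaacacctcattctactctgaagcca
The windows are chr17:40794097-40794396 for Crisp2, chr17:40319158-40319457 for Crisp1 and chr17:40242239-40242538 for Crisp3, each printed 5′ to 3′ along the gene. Crisp1 and Crisp3 were identical at 287 of 300 positions aligned without gaps (95.7%), whereas Crisp1 and Crisp2 matched at 87 (29%). Counted from 0 at the first transcribed base, TATAAA started at position -31 in both Crisp1 and Crisp3 and at -97 in Crisp2, which also held it on the opposite strand at -118. AGAACA started at position 20 of Crisp1 and was not in the Crisp3 window. Among the 6 members with a RefSeq promoter entry, AGAACA was present in Crisp1, Crisp4, Rnase9 and Rnase10, on one strand or the other, and TATAAA in Crisp1, Crisp2 and Crisp3. Of all 32851 promoter windows of this length, 19% held AGAACA and 13.6% held TATAAA. The cAMP response element TGACGTCA (1.79% of all windows) and its shorter form TGACG (20.8%), which overlap each other, were in none of the members' windows. A match is a description of letters and not of binding.

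The other members lie elsewhere. Cd52 (chr4:134093538-134095073, reverse strand) is a short gene of 2 exons. Adam7 (chr14:68497336-68533689) and Adam28 (chr14:68604998-68655889), on the reverse strand of chromosome 14, are neighbours separated by 71308 bases, with up to 23 exons each. Rnase10 (chr14:51007751-51010761, forward strand) and Rnase9 (chr14:51038459-51041903, reverse strand), with 2 exons each, are separated by 27697 bases in the ribonuclease cluster of the same chromosome. No exon of a member overlapped an exon of another gene in the RefSeq annotation, and 0 of the 75-base windows of any member's longest GENCODE transcript occurred in transcripts of another gene, so reads of one CRISP gene could be placed apart from its relatives.

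The sperm libraries held between 1503733 and 2778171 counts in the F1 groups and 8384266 and 11462105 counts in KO-F2, and the liver libraries between 11339729 and 14278900. The 9 members took from 0.379% of the counts (95% Wilson interval 0.375% to 0.383%, KO-F2 replicate 2) to 4.13% (4.108% to 4.155%, KO-F1 replicate 1) in a sperm library. In liver the share lay between 0.000271% (0.0001974% to 0.0003719%) and 0.000794% (0.000646% to 0.000976%), and all such intervals cover counting error only. Library totals include reads of the ribosomal RNA gene Rn45s, from 3.52% (KO-F2 replicate 2) to 28.7% (Ctrl-F1 replicate 2) of a sperm library. The tissue labels were checked against markers. The 7 hepatocyte genes summed to between 111630 and 140364 CPM (counts scaled by library total, here after TMM normalization) in liver and to at most 2.15 CPM in spermatozoa, and 47 to 49 of 49 late spermatogenesis genes had more than 3 counts in each sperm library.

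Crisp1 and Cd52 made up most of the members' RNA in spermatozoa. Together they gave between 70.5% and 96.7% of the members' counts in a library. Per kilobase of exon, Cd52 ranked first of 21542 genes in both KO-F1 libraries, 6th and 15th in the Ctrl-F1 libraries and 13th and 27th in the KO-F2 libraries. Crisp1 ranked between 7th and 18th in the F1 libraries, and 34th and 76th in KO-F2. On this per-kilobase scale the mean levels followed the same order in each group, Cd52, Crisp1, Crisp2, Adam7, Rnase9, Rnase10, Crisp4, Adam28 and Crisp3. Cd52 and Crisp1 overlapped between replicates in Ctrl-F1, at 9981 ± 5640 and 9171 ± 6097 normalized CPM per kilobase (SD, n = 2), and were apart in KO-F1 (35969 ± 20530 and 6319 ± 1315) and in KO-F2 (4475 ± 2295 and 1474 ± 804). Crisp2 and Adam7 were apart in Ctrl-F1 and KO-F2 and overlapped in KO-F1. Among the 5 rarer genes, neighbours in this order overlapped in every group, with 3 exceptions: Adam28 and Crisp3 in KO-F1, where Crisp3 had no count, and Rnase9 and Rnase10 as well as Crisp4 and Adam28 in KO-F2. Rnase9 stood below Adam7 in every group.

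**Figure D1:**
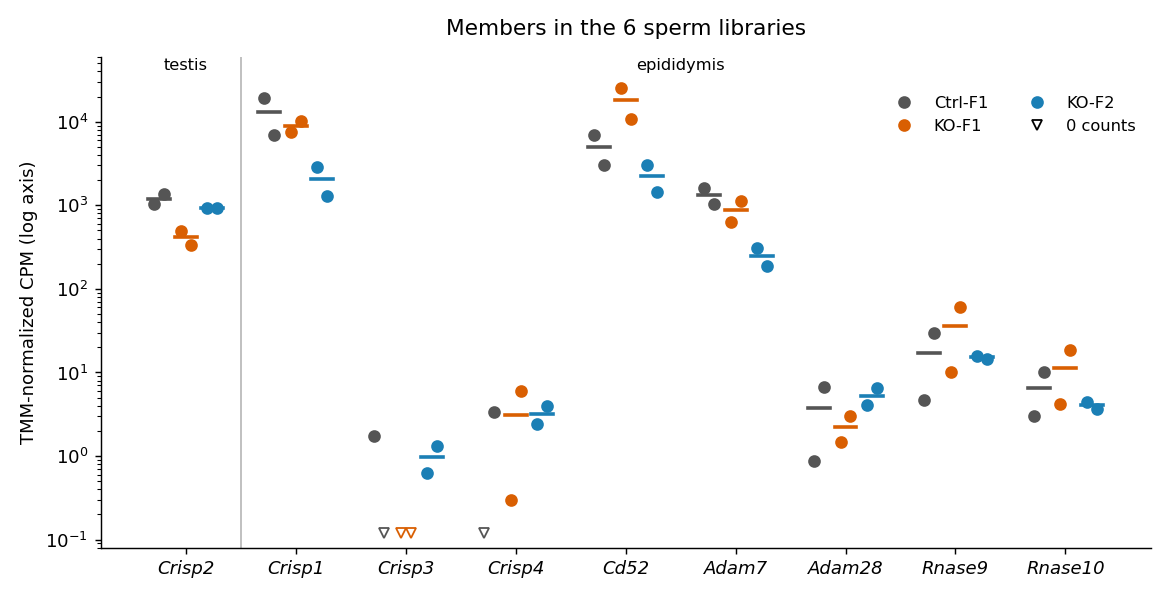
TMM-normalized CPM (log axis) of each member in the 6 sperm libraries, 1 point per library and a bar at the group mean; open triangles at the lower edge stand for 0 counts, and no bar is drawn for Crisp3 in F1 or Crisp4 in Ctrl-F1. Crisp2 lies lowest in both KO-F1 libraries (499 and 331), where Cd52 lies highest (25394 and 10790).

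Crisp2, the testicular member, had 2386 and 1645 counts in the Ctrl-F1 sperm libraries, 1676 and 777 in KO-F1 and 10644 and 7597 in the deeper KO-F2 libraries. These correspond to 1028 and 1382 normalized CPM in Ctrl-F1, 499 and 331 for KO-F1, and 940 and 921 in KO-F2. Both KO-F1 libraries lay below all other sperm libraries, and both KO-F2 libraries lay below both Ctrl-F1 libraries but above both KO-F1 libraries. The log2 fold change was -1.56 (SE 0.41) for KO-F1 against Ctrl-F1, with adjusted p = 0.140 (quasi-likelihood test of edgeR, Benjamini-Hochberg adjustment), and -0.35 (SE 0.31, adjusted p = 0.677) for KO-F2 against Ctrl-F1. Between KO-F2 and KO-F1 it was 1.35 (SE 0.35, adjusted p = 0.0359). When libraries were scaled to the summed counts of the 49 late spermatogenesis genes in place of TMM, the first of these values turned to 0.17 (SE 0.38) and the last to -0.65 (SE 0.29), while the median of all genes moved from 0.02 to 1.75 and from 0.13 to -1.88. Under both scalings Crisp2 lay below the median of all genes in KO-F1 against Ctrl-F1 and above it in KO-F2 against KO-F1.

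Crisp1, whose product coats sperm in the epididymis, had 44302 and 8193 counts in Ctrl-F1, 25633 and 24072 in the KO-F1 libraries and 32737 and 10567 in KO-F2 spermatozoa. The normalized levels were 19091 and 6881 CPM in Ctrl-F1, which differed 2.77-fold between replicates, 7631 and 10265 CPM in KO-F1, and 2891 and 1282 CPM in KO-F2. The KO-F1 libraries lay within the range of the controls, and both KO-F2 libraries lay below every F1 library. The log2 fold change was -0.57 (SE 0.60, adjusted p = 0.659, edgeR's quasi-likelihood test) in KO-F1 and -2.63 (SE 0.70, adjusted p = 0.212) in KO-F2 against Ctrl-F1, and -1.91 (SE 0.52, adjusted p = 0.0430) between KO-F2 and KO-F1. Without Ctrl-F1 replicate 1 the KO-F1 value turned to 0.39. Scaled to the late spermatogenesis list it was 1.19, below the median of all genes under that scaling (1.75). The KO-F2 value against Ctrl-F1 was -1.65 without Ctrl-F1 replicate 1 and -3.31 without KO-F2 replicate 1, and that against KO-F1 was -2.64 without KO-F2 replicate 1.

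Crisp3, known from the salivary gland, and Crisp4, the second epididymal CRISP of the mouse, were close to the limit of detection, set at 3 counts of a library (between 1.08 and 2.00 CPM in F1 spermatozoa, 0.262 and 0.358 CPM in KO-F2). Crisp3 had 4 and 0 counts in Ctrl-F1, 0 and 0 for KO-F1, and 7 and 11 in KO-F2, below 2 normalized CPM in every library. Crisp4 had 0 and 4 counts in Ctrl-F1, 1 and 14 in the KO-F1 libraries, and 27 and 33 in KO-F2, at 2.38 and 4.00 normalized CPM in the last. Its KO-F2 values lay inside the range of the F1 libraries, and the larger counts came with the larger libraries. Only the KO-F2 comparisons had enough counts for a test of Crisp4, at log2 fold changes of 1.18 (SE 1.46, adjusted p = 0.782, edgeR's quasi-likelihood test) against Ctrl-F1 and 0.22 (SE 1.25, adjusted p = 0.920) against KO-F1. No difference of Crisp3 or Crisp4 was detectable at these depths.

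Cd52, the epididymal and leukocyte surface antigen, had the largest fold change of the 6 members tested between KO-F1 and Ctrl-F1 spermatozoa, whereas Crisp2 had the smallest p. Cd52 had 16305 and 3589 counts in Ctrl-F1, 85303 and 25304 for KO-F1, and 34729 and 11831 in KO-F2 spermatozoa. In normalized CPM these were 7026 and 3014 in Ctrl-F1, 25394 and 10790 in the KO-F1 libraries, and 3067 and 1435 in KO-F2. Both KO-F1 libraries lay above all other sperm libraries, while the KO-F2 range overlapped that of Ctrl-F1. The log2 fold change was 1.80 (SE 0.64, adjusted p = 0.185, edgeR's quasi-likelihood test) in KO-F1 and -1.15 (SE 0.59, adjusted p = 0.441) in KO-F2 against Ctrl-F1, and -2.80 (SE 0.63, adjusted p = 0.0250) between KO-F2 and KO-F1. Against Ctrl-F1, the KO-F1 value was 2.57 without Ctrl-F1 replicate 1 and 1.10 without KO-F1 replicate 1, and the KO-F2 value was -0.35 without Ctrl-F1 replicate 1 and -1.77 without KO-F2 replicate 1. The value between KO-F2 and KO-F1 was -2.14 without KO-F1 replicate 1 and -3.48 without KO-F2 replicate 1. Cd52 is also made by lymphocytes and myeloid cells, so leukocyte markers were read beside it. The 19 leukocyte genes in the table summed to between 370 and 935 normalized CPM in Ctrl-F1 and between 296 and 473 for KO-F1, where Cd52 was highest, but to between 4537 and 5722 in KO-F2. Most of the KO-F2 sum came from Lyz2 (1932 and 3272 normalized CPM) and Cd74 (1297 and 1099). Counts of the B cell receptor gene Cd79a were 4 and 0 for the controls, 0 in each KO-F1 library, and 1798 and 846 in KO-F2. Ms4a1, which encodes CD20, had 0 in all 4 F1 libraries and 1018 and 477 in KO-F2. Of the 19 genes, 4 to 7 were at 0 in a Ctrl-F1 library, 6 in each KO-F1 library and 0 in KO-F2. The part of leukocyte RNA in the KO-F2 level of Cd52 was not tested.

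Adam7, an epididymal ADAM without a catalytic site, had 3736 and 1233 counts in Ctrl-F1, 2114 and 2668 in the KO-F1 libraries and 3495 and 1544 in KO-F2 spermatozoa. The normalized levels were 1610 and 1036 CPM in Ctrl-F1, 629 and 1138 CPM for KO-F1 and 309 and 187 CPM in KO-F2. As for Crisp1, the KO-F1 libraries overlapped the controls and the KO-F2 libraries lay below all of them. The log2 fold change was -0.60 (SE 0.47, adjusted p = 0.538, edgeR's quasi-likelihood test) in KO-F1 and -2.41 (SE 0.43, adjusted p = 0.149) in KO-F2 against Ctrl-F1, and -1.65 (SE 0.45, adjusted p = 0.0418) between KO-F2 and KO-F1. Scaled to the late spermatogenesis list, the KO-F1 value turned to 1.17, below the median of all genes under that scaling (1.75). Adam28, a catalytically active relative that is also known from lymphocytes, had 2 and 8 counts in Ctrl-F1, 5 and 7 in the KO-F1 libraries and 46 and 53 in KO-F2, or between 0.862 and 6.72 normalized CPM. The KO-F2 libraries lay above both KO-F1 libraries and within the range of Ctrl-F1, with a log2 fold change of 1.41 (SE 0.89, adjusted p = 0.296) between KO-F2 and KO-F1. The leukocyte genes given beside Cd52 were also higher in KO-F2, and their part in the level of Adam28 was not tested.

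The ribonuclease genes were low and varied widely between the replicates of both F1 groups. Rnase9, one of the epididymal somatic cell markers that the study examined in its F1 sperm, had 11 and 35 counts in Ctrl-F1, 34 and 144 for KO-F1 and 178 and 121 in KO-F2. Its normalized level differed 6.20-fold between the Ctrl-F1 replicates (4.74 and 29.4 CPM) and 6.07-fold between the KO-F1 replicates (10.1 and 61.4 CPM), and it was 15.7 and 14.7 CPM in KO-F2. Rnase10, which is needed for sperm maturation in the proximal epididymis, had 7 and 12 counts in Ctrl-F1, 14 and 43 in the KO-F1 libraries and 50 and 30 in KO-F2, at 3.02 and 10.1, 4.17 and 18.3, and 4.42 and 3.64 normalized CPM. In both genes replicate 2 was the higher library of Ctrl-F1 and of KO-F1, and the groups overlapped. The log2 fold changes of KO-F1 against Ctrl-F1 were 1.12 (SE 1.06) for Rnase9 and 0.81 (SE 1.20) for Rnase10, and those of KO-F2 against KO-F1 were -1.06 (SE 0.76) and -1.30 (SE 0.86), with adjusted p-values of at least 0.318 (edgeR's quasi-likelihood test). All 4 values changed sign without KO-F1 replicate 2, to -0.74, -0.64, 0.74 and 0.10.

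No member passed the threshold taken from the study, a change of 2-fold or more at an adjusted p under 0.01, in edgeR's quasi-likelihood test. The study applied this threshold with DESeq2. The smallest edgeR adjusted p of any gene was 0.140 in KO-F1 and 0.0996 in KO-F2 against Ctrl-F1 spermatozoa. In KO-F1 against Ctrl-F1 spermatozoa 0 of 6 members tested were called (0% of 10785 genes), while Crisp2 and Cd52 had an unadjusted p under 0.05 (2 members, and 2105 genes in all) and both were called by DESeq2 (2 of 5 members with an adjusted p, against 7.8% of genes). Their groups did not overlap, which held for 54% of all genes tested. In KO-F2 against Ctrl-F1 spermatozoa 0 of 8 members were called (0% of 13149 genes), and Crisp1 and Adam7 had an unadjusted p under 0.05 (2 members, 1960 genes) and were called by DESeq2 (2 of 8 members, 2.14% of genes). The groups of 3 members, Crisp1, Crisp2 and Adam7, did not overlap, as for 48% of genes. The log2 fold change of Adam7 was -2.66 without Ctrl-F1 replicate 2 and -1.99 without Ctrl-F1 replicate 1. Such a fit takes the spread from the 2 KO-F2 libraries and assumes that the lone Ctrl-F1 library varies alike.

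KO-F2 and KO-F1 spermatozoa differed in generation, mode of conception, background strain label and library depth. Between them, 0 of 8 members were called by edgeR at an adjusted p under 0.01 (2.31% of 13517 genes). At an adjusted p under 0.05, 4 members were called: Crisp1, Cd52 and Adam7 were lower and Crisp2 was higher in KO-F2 (20.4% of genes, edgeR's quasi-likelihood test). DESeq2 called the same 4 members at 0.01 (13.6% of genes), and the groups of 5 members did not overlap (66.2% of genes). Without KO-F1 replicate 1 the log2 fold changes were -2.08 (Adam7), -1.90 (Rnase9) and -2.14 (Cd52). Without KO-F1 replicate 2 they were -1.19, 0.74 and -3.34. In both fits the lone KO-F1 library is assumed to vary like the KO-F2 libraries. The median log2 fold change of the 8 members tested was -1.18, and that of all genes tested was 0.13. This comparison shares its KO-F1 libraries with the first and its KO-F2 libraries with the second, so the 3 sets of values are not independent.

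**Figure D2:**
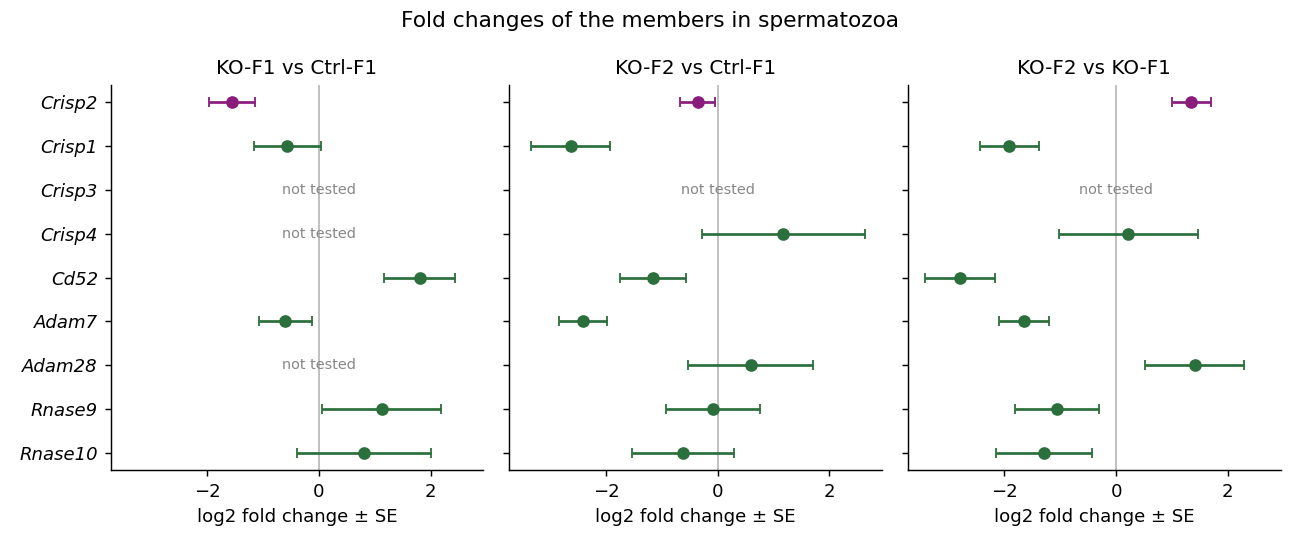
Log2 fold change of each member with its SE (edgeR, TMM) in KO-F1 against Ctrl-F1, KO-F2 against Ctrl-F1 and KO-F2 against KO-F1 spermatozoa; Crisp2 is drawn in purple and members with too few counts are marked as not tested. In the third panel Crisp2 (1.35) and the 3 abundant epididymal genes (-1.91, -2.80 and -1.65) lie on opposite sides of 0, and scaled to late spermatogenesis genes Crisp2 was at -0.65 where the median of all genes moved from 0.13 to -1.88.

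A ratio of counts within a library does not depend on how libraries are scaled, so Crisp2 was set against each epididymal member with at least 10 counts in every sperm library. There was 0.146 and 0.458 of a Crisp2 count per Cd52 count in Ctrl-F1, 0.0196 and 0.0307 for KO-F1, and 0.306 and 0.642 in KO-F2. Both KO-F1 libraries were below all others. The mean log2 ratio differed by -3.40 between KO-F1 and Ctrl-F1 (SD 0.46 and 1.16, n = 2 and 2) and by 4.17 between KO-F2 and KO-F1. The ratio to Crisp1 was 0.0539 and 0.201 in Ctrl-F1, 0.0654 and 0.0323 in the KO-F1 libraries, and 0.325 and 0.719 in KO-F2, and the ratio to Adam7 was 0.639 and 1.33, 0.793 and 0.291, and 3.05 and 4.92. For both, KO-F2 lay above all F1 libraries, by log2 differences of 2.22 (Crisp1) and 2.07 (Adam7) from Ctrl-F1 and of 3.40 and 3.01 from KO-F1, while KO-F1 and Ctrl-F1 overlapped. The ratio to Rnase9 ranged from 5.40 to 49.3 in KO-F1 and from 47 to 217 in Ctrl-F1, and was 59.8 and 62.8 in KO-F2. With 2 libraries against 2 the exact permutation test, two-sided, cannot give a p under 0.33. This value, which means only that 2 groups did not overlap, was reached in 7 of these 12 comparisons. Their Benjamini-Hochberg adjusted value over 21 comparisons of ratios was 0.636. In normalized CPM, 54% (KO-F1 against Ctrl-F1), 48% (KO-F2 against Ctrl-F1) and 66.2% (KO-F2 against KO-F1) of all genes tested did not overlap. The 12 comparisons share libraries and Crisp2, so they are not independent.

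**Figure D3:**
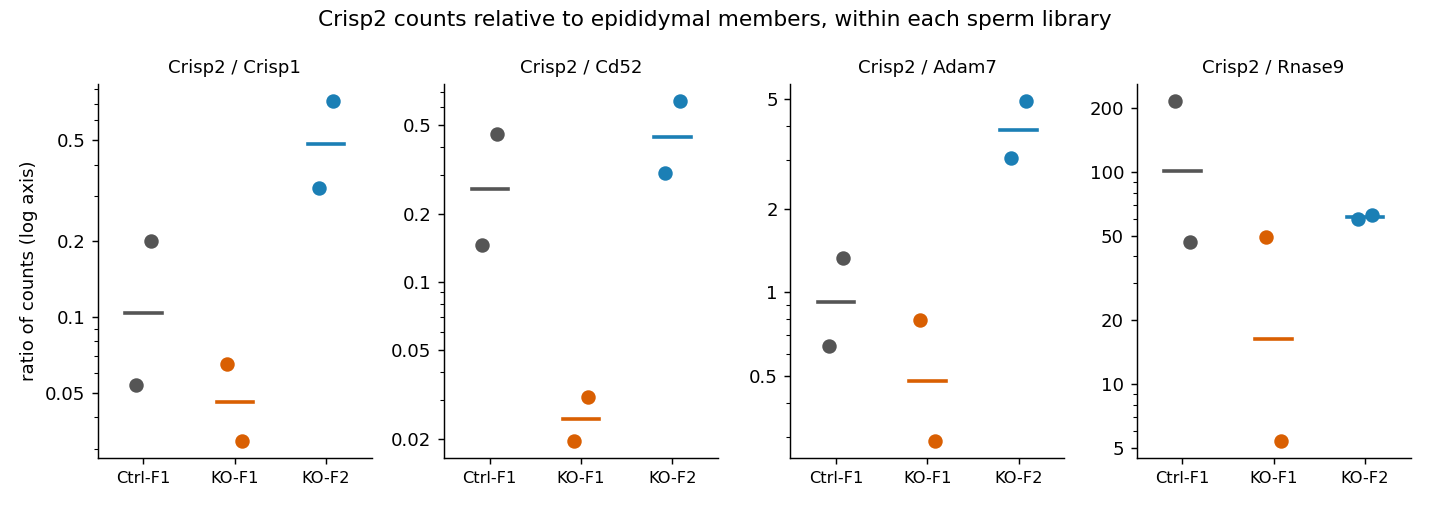
Ratio of Crisp2 counts to the counts of Crisp1, Cd52, Adam7 and Rnase9 within each sperm library (log axes), 1 point per library and a bar at the geometric mean of the group. KO-F2 lies above both F1 groups for Crisp1 and Adam7, and KO-F1 lies below both other groups for Cd52.

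The abundant epididymal genes differed from each other in their order across groups. Ratios among them were computed after their values had been seen. Crisp1 counts per Adam7 count were 11.9 and 6.64 in Ctrl-F1, 12.1 and 9.02 for KO-F1, and 9.37 and 6.84 in KO-F2, and the 3 groups overlapped. Cd52 counts per Crisp1 count were 0.368 and 0.438 in Ctrl-F1, 3.33 and 1.05 in the KO-F1 libraries, and 1.06 and 1.12 in KO-F2, so that both KO groups lay above Ctrl-F1, by log2 differences of 2.22 (SD 1.18 and 0.18, n = 2 and 2) and 1.44 (SD 0.06 and 0.18). Each of these 2 differences had the smallest p of the exact permutation test, 0.33, and KO-F1 and KO-F2 overlapped in this ratio. Crisp2 per 1000 counts of the late spermatogenesis list was 6.61 and 8.40 in Ctrl-F1, 9.33 and 7.50 for KO-F1, and 5.41 and 5.32 in KO-F2. On this scale KO-F1 overlapped Ctrl-F1 and both KO-F2 libraries were the lowest, by a log2 difference of -0.47 from Ctrl-F1.

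**Figure D4:**
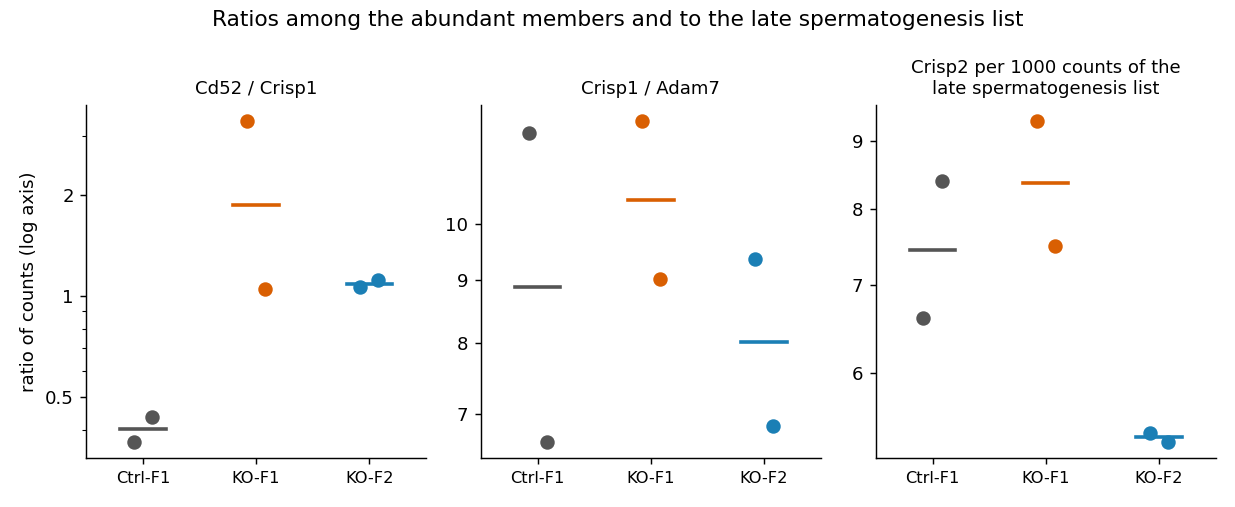
Counts of Cd52 per Crisp1 count, of Crisp1 per Adam7 count, and of Crisp2 per 1000 counts of the late spermatogenesis list in each sperm library (log axes with different ranges), with a bar at the geometric mean of the group. Cd52 per Crisp1 is below 0.44 in both Ctrl-F1 libraries and above 1 in the other 4, and Crisp1 per Adam7 overlaps between all groups.

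Genes of the same settings were read beside the members, by lists written from general knowledge. The epididymal somatic cell markers are an exception and are those that the study examined in its F1 sperm. Late spermatogenesis genes, like Crisp2, were lowest in KO-F1 spermatozoa. Of 46 tested in KO-F1 against Ctrl-F1, 44 had a negative log2 fold change with a median of -1.72, against 0.02 over all genes, and in KO-F2 against KO-F1 33 of 49 were higher by at least 2-fold at an adjusted p under 0.05 (edgeR's quasi-likelihood test, 14.2% of all genes), with a median of 2.1. The protamine gene Prm2 was at -2.30 (SE 0.54) in KO-F1 and 0.19 (SE 0.55) in KO-F2 against Ctrl-F1, and the sperm mitochondrial gene Smcp at -1.19 (SE 0.50) and -0.24 (SE 0.50). The list summed to between 155473 and 164551 normalized CPM in Ctrl-F1, between 44167 and 53466 in the KO-F1 libraries, and to 173074 and 173832 in KO-F2, and its part in the level of Crisp2 was not tested. Testicular ADAM genes, which serve sperm migration and egg binding, had the same signs in 2 comparisons. In KO-F1 against Ctrl-F1 11 of 11 tested were negative (median -1.81), where 50.5% of all genes were positive. In KO-F2 against KO-F1 15 of 16 were positive (median 1.95, 53.1% of all genes), of which 5 passed the same threshold. In KO-F2 against Ctrl-F1 the lists differed. Testicular ADAM genes had 5 positive and 11 negative (median -0.32), and late spermatogenesis genes 29 positive and 20 negative (median 0.19, all genes 0.07). Adam3, needed for sperm passage into the oviduct, was at -1.81 (SE 0.53) in KO-F1 against Ctrl-F1, where Adam7 was at -0.60. When libraries were scaled to the late spermatogenesis list, the median of all genes moved to 1.75 (KO-F1 against Ctrl-F1) and -1.88 (KO-F2 against KO-F1).

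Other epididymal secretory genes divided among themselves. Of 20 tested in KO-F1 against Ctrl-F1, 13 were positive and 7 negative (median 0.52, all genes 0.02). In KO-F2 against Ctrl-F1 13 of 22 were positive and 9 negative (median 0.28, all genes 0.07). In KO-F2 against KO-F1 2 of 22 were higher and 6 lower at this threshold, as were 14.2% and 6.23% of all genes (median -1.0, all genes 0.13). The beta-defensin gene Defb28, like Cd52, was highest in both KO-F1 libraries, with 500 and 308 normalized CPM in Ctrl-F1, 4376 and 1422 for KO-F1, and 600 and 356 in KO-F2. The protease inhibitor gene Spink8 had 2405 and 1200 in Ctrl-F1, 4338 and 2287 in the KO-F1 libraries, and 598 and 211 in KO-F2, so that both KO-F2 libraries were the lowest, as for Crisp1 and Adam7. In KO-F2 against KO-F1, Spink8 was at -2.83 (SE 0.61, adjusted p = 0.0229) and Defb28 at -2.40 (SE 0.59, adjusted p = 0.0324) in edgeR's quasi-likelihood test. The list summed to between 2200 and 3559 normalized CPM in Ctrl-F1, between 4650 and 10284 for KO-F1 and between 1162 and 1812 in KO-F2. Spink8 and Defb28 carried much of these sums. In the CAP superfamily, to which the CRISP proteins belong, 4 to 8 of 10 genes were tested in a sperm comparison, with medians of -0.23 (KO-F1 against Ctrl-F1), -1.57 (KO-F2 against Ctrl-F1) and -0.40 (KO-F2 against KO-F1). Its most abundant gene, Pi16, had 38.4 and 158 normalized CPM in Ctrl-F1, 43.2 and 88.3 in the KO-F1 libraries and 23.7 and 27.5 in KO-F2.

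Markers of other cells differed between the sperm groups. Epithelial genes (10 in the list) summed to between 2741 and 3811 normalized CPM in Ctrl-F1, 2014 and 2192 for KO-F1, and 1238 and 1755 in KO-F2. Most of this sum came from the tight junction gene Cldn3, at 2086 and 3236 CPM in Ctrl-F1, 1124 and 1407 for KO-F1, and 990 and 1455 in KO-F2. Without Cldn3, the sum of the other genes was higher in both KO-F1 libraries than in both Ctrl-F1 libraries, and lowest in KO-F2. The list was divided in KO-F1 against Ctrl-F1, with 4 genes positive and 4 negative (median -0.08, all genes 0.02). The keratin genes Krt19 (1.59, SE 0.45) and Krt18 (1.48, SE 0.46) were highest in both KO-F1 libraries, as was Cd52, and Cldn3 (-1.08, SE 0.43) and the adhesion gene Epcam (-0.54, SE 0.51) were negative. In KO-F2 against Ctrl-F1 7 of 9 were negative (median -1.10, all genes 0.07), among them Epcam (-2.59, SE 0.47). Between KO-F2 and KO-F1, 6 of 9 were lower by at least 2-fold at an adjusted p under 0.05 (edgeR's quasi-likelihood test, 6.23% of all genes). The 14 epididymal somatic cell markers, which include Rnase9, summed to between 142 and 235 in Ctrl-F1, 168 and 281 in the KO-F1 libraries and 181 and 244 in KO-F2. The stress-response gene Atf3 carried much of the KO-F2 sum, at 94.8 and 105 CPM, against 24.1 and 21.8 in Ctrl-F1 and 2.98 and 19.6 for KO-F1. Of the markers tested, 9 of 12 were negative in KO-F2 against Ctrl-F1 (median -0.66, all genes 0.07) and 8 of 13 in KO-F2 against KO-F1 (median -1.06, all genes 0.13). Of the 14, 10 to 13 had more than 3 counts in a sperm library. The study reported that its sperm RNA-seq showed no expression of such somatic markers. It displayed them for F1 sperm as log2 RPKM, a measure unlike a limit on counts. The part of epithelial cells in the levels of the epididymal members was not tested.

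**Figure D5:**
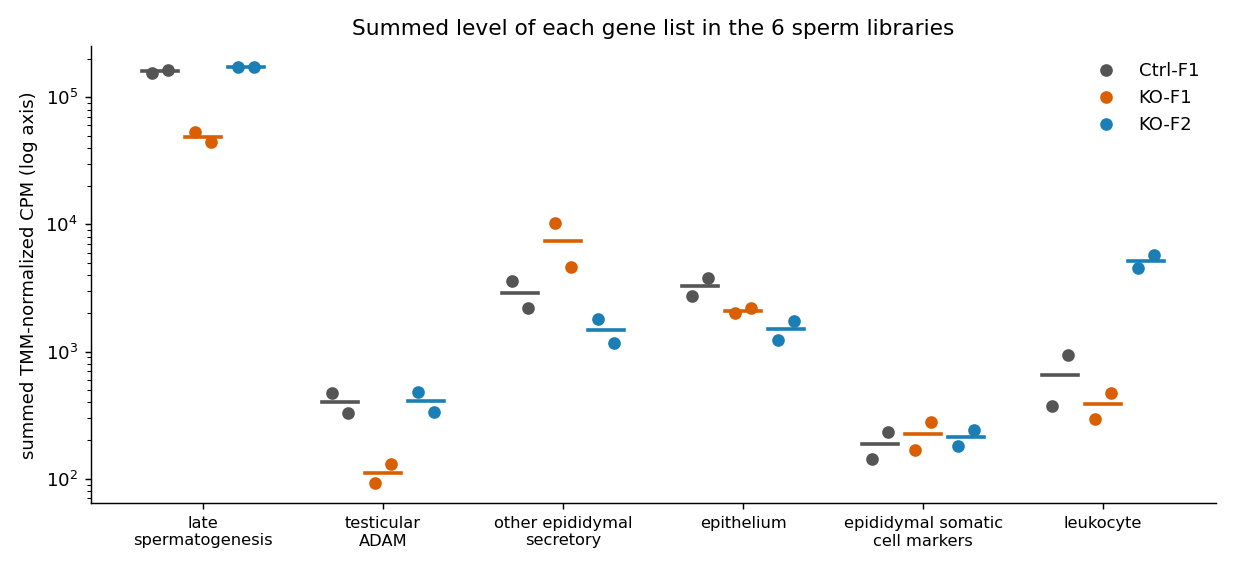
Summed TMM-normalized CPM (log axis) of 6 gene lists in each sperm library, with a bar at the group mean. Late spermatogenesis and testicular ADAM genes are lowest in KO-F1, other epididymal secretory genes are highest in KO-F1, epithelial genes are lowest in KO-F2 and leukocyte genes are highest in KO-F2. Most of the epithelial sum is Cldn3, without which Ctrl-F1 lies below KO-F1.

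The genes whose levels across the 6 sperm libraries were most like those of Crisp2, among 7609 genes with a mean of at least 10 normalized CPM, were Lrrc63, Nsun4, Ms4a13, Hsdl2 and Tmem56, with a Pearson r of between 0.985 and 0.995 on the log2(CPM + 1) scale. For Cd52 they were Vapb, Mlph, Wfdc6b, Plp2 and Nsdhl, with r between 0.991 and 0.997. Wfdc6b had 251 and 142 normalized CPM in Ctrl-F1, 558 and 299 for KO-F1, and 121 and 85.4 in KO-F2. These 6 libraries form 3 groups of 2, so each r mostly describes the differences between groups.

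In liver the members were nearly absent. Crisp1, Crisp3, Crisp4, Adam28 and Rnase9 had 0 counts in all 4 libraries, Adam7 had 1 count in 1 library, and Rnase10 had at most 3. Crisp2 had 4 counts in KO-F1 replicate 1 and 0 in the other 3. At a limit of 3 counts, levels of up to between 0.210 and 0.265 CPM would have been missed. Only Cd52 passed the filter, with 38 and 36 counts in the control livers and 59 and 87 in the KO-F1 livers, or 2.70 and 2.42 and 4.81 and 8.05 normalized CPM. Both KO-F1 livers lay above both controls, at a log2 fold change of 1.32 (SE 0.38, unadjusted p = 0.00915, adjusted p = 0.484, edgeR's quasi-likelihood test), so 0 of 1 members were called (0% of 11505 genes, of which 1083 had an unadjusted p under 0.05), and DESeq2, which called 20 genes, gave Cd52 no adjusted p. All 11 leukocyte genes tested in liver were positive as well (median 0.34, all genes -0.01), and their part in this value was not tested. Liver libraries were made with a stranded mRNA kit and sperm libraries with an amplifying low-input kit, so tissue and kit cannot be told apart and no test between them was made.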

How the data were processed

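The authors deposited 1 file of raw read counts per gene symbol for each of 10 libraries. Per their methods and processing notes, single-end reads of 75 bp were aligned to GRCm38 with HISAT2 2.1.0 and uniquely aligned reads were counted with featureCounts; the annotation and strand setting are not given in the sources used here. Of 23420 lines, 4 lines of 2 repeated symbols were left out. The other 37 samples of the series were not analysed here.

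Counts were tested on the whole table with edgeR 4.0.16 (R 4.3.3): TMM normalization, filterByExpr (minimum count 10, minimum total count 15), quasi-likelihood test between the 2 groups compared, and Benjamini-Hochberg adjustment over all genes tested. The SE is the absolute log2 fold change divided by the square root of F. Calls needed a change of 2-fold or more at an adjusted p under 0.01. Levels are TMM-normalized CPM over the 6 sperm or the 4 liver libraries, and lengths are exon unions of RefSeq GRCm38.p6 (92% of symbols). Sperm cDNA was amplified by PCR, so reads are not independent molecules. Ratios were compared with exact permutation tests (scipy). Alternatives were DESeq2 1.42.0 and its size factors, scaling to summed late spermatogenesis counts, other filters on low counts, all sperm groups in 1 model, the replicate number as a block, and leaving out each library. Ratios among epididymal members and to the late spermatogenesis list, and the crossed block in liver, were chosen after seeing the data. The tests were run on simulated counts. Recovery of changed genes was required only at low noise, and the right direction of change for most of them at every noise setting. The power at the noise of these data is not given here. Replicates of a group are separate animals, and their counts differed by more than sampling noise. The members and the gene lists were chosen with earlier results of these data known. The text names all members, and from each list at most 4 genes: the 2 most abundant in spermatozoa and the 2 with the largest change.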

Additional observations from a re-analysis of the deposited data

Results flagged for a closer look

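Cd52 was picked out because its libraries moved in opposite directions against the same Ctrl-F1 mean, up in both KO-F1 and down in both KO-F2 sperm libraries. The KO-F2 and Ctrl-F1 ranges overlapped, and the log2 fold change of KO-F2 against Ctrl-F1 went from -1.15 to -0.35 without Ctrl-F1 replicate 1. Between KO-F2 and KO-F1 spermatozoa the log2 fold change was -2.80 (SE 0.63, adjusted p = 0.0250, edgeR's quasi-likelihood test). It did not pass an adjusted p of 0.01 there but did in DESeq2 (-2.84, adjusted p = 5.90e-08).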

How the results depend on the processing

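The number of members called by edgeR, 0 in every comparison, depended on the processing. DESeq2 called 2 in KO-F1 against Ctrl-F1 (390 of 5000 genes) and 2 in KO-F2 against Ctrl-F1 (277 of 12963 genes). It called 4 in KO-F2 against KO-F1 spermatozoa (2058 of 15135 genes). In the last comparison an adjusted p under 0.05 gave 4, no filter on low counts 4, at least 10 counts in every library 3, and scaling to the late spermatogenesis list 3. With the replicate number as a block, 3 members were called in KO-F2 against Ctrl-F1 (362 of 13149 genes). With this block, 1 was called in KO-F2 against KO-F1 (819 of 13517 genes) and 0 in the other 2 comparisons. Same-numbered samples came from different animals. Over all genes tested, the correlations of their deviations lay between -0.10 and 0.14, which does not settle the matter for single genes. Cd52 was higher in replicate 1 of every sperm group, by 2.33-fold (Ctrl-F1), 2.35-fold (KO-F1) and 2.14-fold (KO-F2). Crisp1 and Adam7 were higher in replicate 1 of Ctrl-F1 and KO-F2 but in replicate 2 of KO-F1. Whether same-numbered libraries share a batch was not tested. The crossed pairing in liver, added after seeing the data, called 0 genes. Each fit that left out 1 library assumes that the lone library varies like those of the other group. Members called in these fits are therefore not counted here.

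Scaling to the late spermatogenesis list moved the median log2 fold change of all genes from 0.02 to 1.75 (KO-F1 against Ctrl-F1), from 0.07 to -0.06 (KO-F2 against Ctrl-F1) and from 0.13 to -1.88 (KO-F2 against KO-F1). With this common shift it reversed Crisp1 (1.19), Crisp2 (0.17) and Adam7 (1.17) in the first and Crisp2 (-0.65), Crisp4 (-1.86) and Adam28 (-0.61) in the last, each of which lay on the same side of the median of all genes under both scalings. In the last comparison the 312 genes called, 285 higher and 27 lower, became 3913, 38 higher and 3875 lower. Rnase9 in KO-F2 against Ctrl-F1 reversed with at least 10 counts in every library (0.072) and with the replicate block (0.31). Over all alternatives that kept every library, the genes called ranged from 0 to 451, 0 to 362, 198 to 3913 and, in liver, 0 to 25.

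Leaving out 1 library reversed only values of Crisp1 and of the rarer members. In KO-F1 against Ctrl-F1 the ranges were -1.12 to 0.39 (Crisp1), -0.74 to 2.88 (Rnase9) and -0.64 to 1.86 (Rnase10). In KO-F2 against Ctrl-F1 they were -0.019 to 7.54 (Crisp4), -0.30 to 2.61 (Adam28), -0.88 to 1.71 (Rnase9) and -1.25 to 0.46 (Rnase10). In KO-F2 against KO-F1 they were -0.80 to 3.49 (Crisp4, which was also at -0.14), -1.90 to 0.74 (Rnase9) and -2.06 to 0.10 (Rnase10). Of the ratios, 2 reversed in KO-F2 against Ctrl-F1, both without Ctrl-F1 replicate 1, Crisp2 to Cd52 (-0.047 to 1.60) and Crisp2 to Rnase9 (-1.82 to 0.38), and adding 0.5 to each count reversed 0 of 12. The cause of these changes was not tested. The lower depth of the F1 sperm libraries limits Crisp3, Crisp4 and Adam28 most.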
